A study of Mus musculus with 24 samples.

Results

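The genes described here are 50 regulators and effectors of the cell cycle and of DNA replication, chosen by name and by known role, of 52636 gene models measured in each library. They were split into 14 regulators of the G1 phase, 17 genes of DNA replication and 19 genes of mitosis. RNA sequencing was done on bone marrow-derived macrophages, primary mouse macrophages grown from marrow. There were 4 groups of 6 libraries: Ninj1 knockout cells stimulated with Pam3 (KO_Pam3), Ninj1 knockout cells kept in media only (KO_media), wild-type C57BL/6 cells stimulated with Pam3 (WT_Pam3) and wild-type C57BL/6 cells in media only (WT_media). Pam3 is the short name of a synthetic lipopeptide that activates Toll-like receptor 2, and NINJ1 is a membrane protein needed for plasma membrane rupture in dying cells. The wild-type samples are labelled male and no sex is given for the knockout samples, so sex and genotype cannot be told apart. The labels give no allele, no age of the mice, and no dose or duration of Pam3. Nothing in them tells separate mice or cultures from repeat preparations within a group of 6, so p-values here reflect only library-to-library spread, which may be technical.

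A cell enters the cycle when D-type cyclins with CDK4 or CDK6, then E-type cyclins with CDK2, phosphorylate the retinoblastoma protein and free E2F factors, which switch on the genes of DNA replication. Inhibitors of the Cip/Kip and INK4 families hold these kinases back. Later, cyclins A and B with CDK1 drive mitosis, and many mitotic genes are repressed in resting cells through promoter elements named CHR. Their promoters often carry CCAAT elements as well. Marrow-derived macrophages divide in response to the growth factor CSF1, and bacterial ligands are known to stop that division.

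Promoter sequences of the members were examined for these elements, because many cell cycle genes are known targets of the factors that bind them. Windows of 300 bases around the RefSeq start (GRCm38.p6) were found for 41 of the 50 members. The motifs searched, on both strands, were E2F (TTTCGCGC or TTTGGCGC), CHR (TTTGAA or TTCGAA) and CCAAT. The stretches below carry them in 4 mitotic and 2 replication promoters, 5′ to 3′ on the strand of the gene, with matches in capitals. Capital ATTGG and TTCAAA are matches on the other strand, and matches that overlap each other run together.
Cdk1 (chr10:69352913-69353052, minus strand): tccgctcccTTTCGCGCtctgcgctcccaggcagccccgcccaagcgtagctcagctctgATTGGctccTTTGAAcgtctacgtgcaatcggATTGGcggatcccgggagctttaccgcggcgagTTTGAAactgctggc
Cdc20 (chr4:118437344-118437443, minus strand): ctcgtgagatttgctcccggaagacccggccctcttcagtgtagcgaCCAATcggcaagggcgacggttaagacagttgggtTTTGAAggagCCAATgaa
Kif11 (chr19:37376282-37376381, plus strand): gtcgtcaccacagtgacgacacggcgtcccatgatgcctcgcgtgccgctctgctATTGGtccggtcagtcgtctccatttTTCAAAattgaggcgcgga
Mki67 (chr7:135716460-135716579, minus strand): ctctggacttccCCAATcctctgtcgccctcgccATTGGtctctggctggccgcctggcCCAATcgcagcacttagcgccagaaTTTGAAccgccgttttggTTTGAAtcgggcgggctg
Mcm6 (chr1:128359706-128359825, minus strand): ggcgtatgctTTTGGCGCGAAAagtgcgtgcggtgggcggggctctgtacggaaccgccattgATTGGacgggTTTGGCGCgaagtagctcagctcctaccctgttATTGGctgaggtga
Mcm5 (chr8:75109344-75109467, plus strand): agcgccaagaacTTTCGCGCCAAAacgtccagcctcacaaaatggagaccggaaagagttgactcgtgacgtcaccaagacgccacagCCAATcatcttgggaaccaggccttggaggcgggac
Cdk1, the mitotic kinase, Cdc20, an activator of the anaphase-promoting complex, and Kif11, a spindle motor, held CHR and CCAAT matches within 140 bases upstream of the start. Mki67, which encodes the proliferation marker Ki-67, held 2 CHR and 3 CCAAT matches. Mcm6 and Mcm5, subunits of the replicative helicase, held 3 and 2 E2F matches, of which overlapping pairs lie on opposite strands.

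Among windows of mitotic members, 12 of 16 (75%) held a CHR match and 14 of 16 (87.5%) a CCAAT match, against 14.0% and 37.5% of 12804 windows of tested genes, and 19.2% and 37.4% of all 32851 windows. E2F matches were in 6 of 16 windows of replication members (37.5%), against 1.45% of windows of tested genes and 0.813% of all windows. Among windows of G1 members, 1 of 14 (7.14%) held an E2F match, 1 of 14 (7.14%) a CHR match and 6 of 14 (42.9%) a CCAAT match. Some genes have more than 1 window. In 45 windows of other mitotic genes, listed by known role, CHR matches were in 33 (73.3%) and CCAAT matches in 32. The replication pattern was weaker in other genes of that class. E2F matches were in 6 of 40 windows of other replication genes, a smaller share than in members but above that of tested genes. Other G1 genes had a similar share, 5 of 35. CCAAT matches were in 17 of 40 windows of other replication genes, against 12 of 16 in members, and close to the share in tested genes. A match describes the letters only, and the absence of one says nothing about binding.

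**Figure D1:**
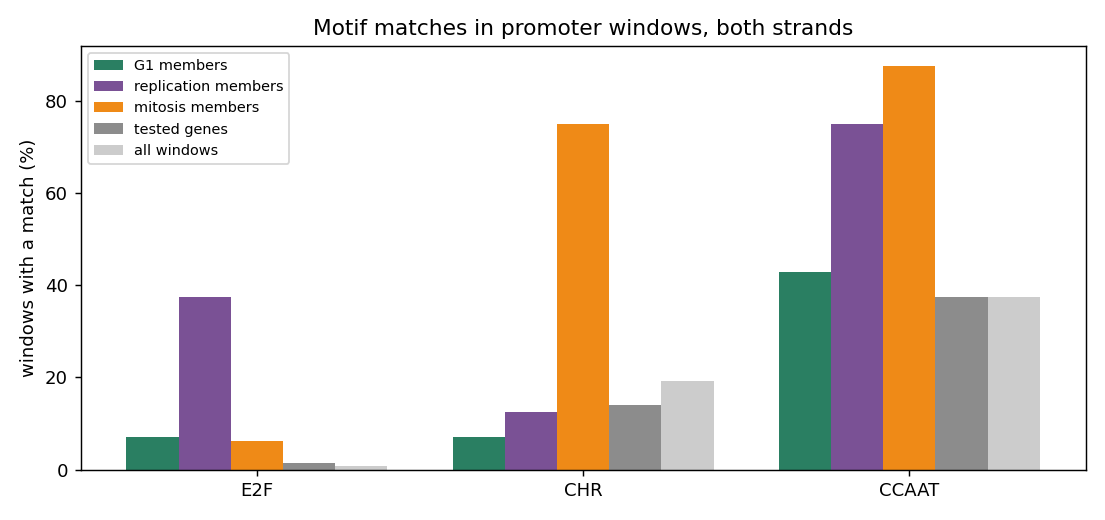
Share of promoter windows (percent, vertical axis) with at least 1 match to each motif, for the G1, replication and mitosis members, for tested genes and for all windows. CHR stands out among mitotic members at 75%, E2F among replication members at 37.5%, and CCAAT in both.

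The libraries held 31302011 to 40663152 counted reads each, and all 50 members passed the filter on low counts. The 6 macrophage marker genes were detected in every library, with a summed level of 9308 to 10159 CPM (read counts scaled by effective library size) in KO_Pam3, against 7446 to 7881 in KO_media, and 9151 to 10461 in WT_Pam3, against 7025 to 7548 in WT_media. The rise of that sum with Pam3 was carried by Adgre1 (F4/80), which rose by 1.73 on the log2 scale in knockout and 1.83 in wild-type cells. Itgam rose as well. Csf1r, Cd68, Fcgr1 and Mertk fell in both, Mertk by 7.24-fold in knockout and 5.19-fold in wild-type cells. Ninj1 was lower in knockout cells, at 409 to 479 CPM in KO_Pam3 against 646 to 1145 in WT_Pam3, and at 151 to 179 in KO_media against 289 to 325 in WT_media. Its log2 fold change was -0.92 ± 0.09 with Pam3 (SE, adjusted p = 4.05e-07) and -0.88 ± 0.09 in media (adjusted p = 7.33e-07). Reads over Ninj1 thus remained in the knockout libraries, and the labels do not give the deleted part of the gene. WT_Pam3 replicate 5 stood apart in several members. It also had the lowest macrophage marker sum (9151 CPM) and the highest Ninj1 level (1145 CPM) of its group. KO_media replicate 1 was the highest of its group in 25 of 50 members. Members whose calls change without either library are named beside their results.

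Pam3 lowered most of the 50 genes and raised 6 in both genotypes. In knockout cells 43 members fell, 6 rose and 1 did not pass an adjusted p of 0.05 (edgeR quasi-likelihood test, Benjamini-Hochberg over 14435 genes). In wild-type cells 41 fell, 6 rose and 3 did not pass. Calls were common in the whole table: 44.8% of tested genes were called lower and 40.2% higher in knockout cells, and 44.2% lower and 40.6% higher in wild-type cells. The members' median log2 fold change was -1.04 in knockout and -1.05 in wild-type cells, beside -0.07 and -0.05 over all tested genes. Falls of at least 2-fold were seen in 25 members in knockout cells, where 25.3% of tested genes fell that far, and in 26 members in wild-type cells, against 25.1% of tested genes. All 6 Pam3 libraries lay below all 6 media libraries for 42 members in knockout cells (39.7% of tested genes) and for 37 in wild-type cells (36.4%), and above them for 6 members in each (36.0% and 32.5%). The 6 that rose were Cdkn1a, Ccnd2, Myc and Ccne1 in G1, Tyms in replication and Mki67 in mitosis. In bulk RNA, fewer cycling cells and less of these transcripts in each cell cannot be told apart.

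**Figure D2:**
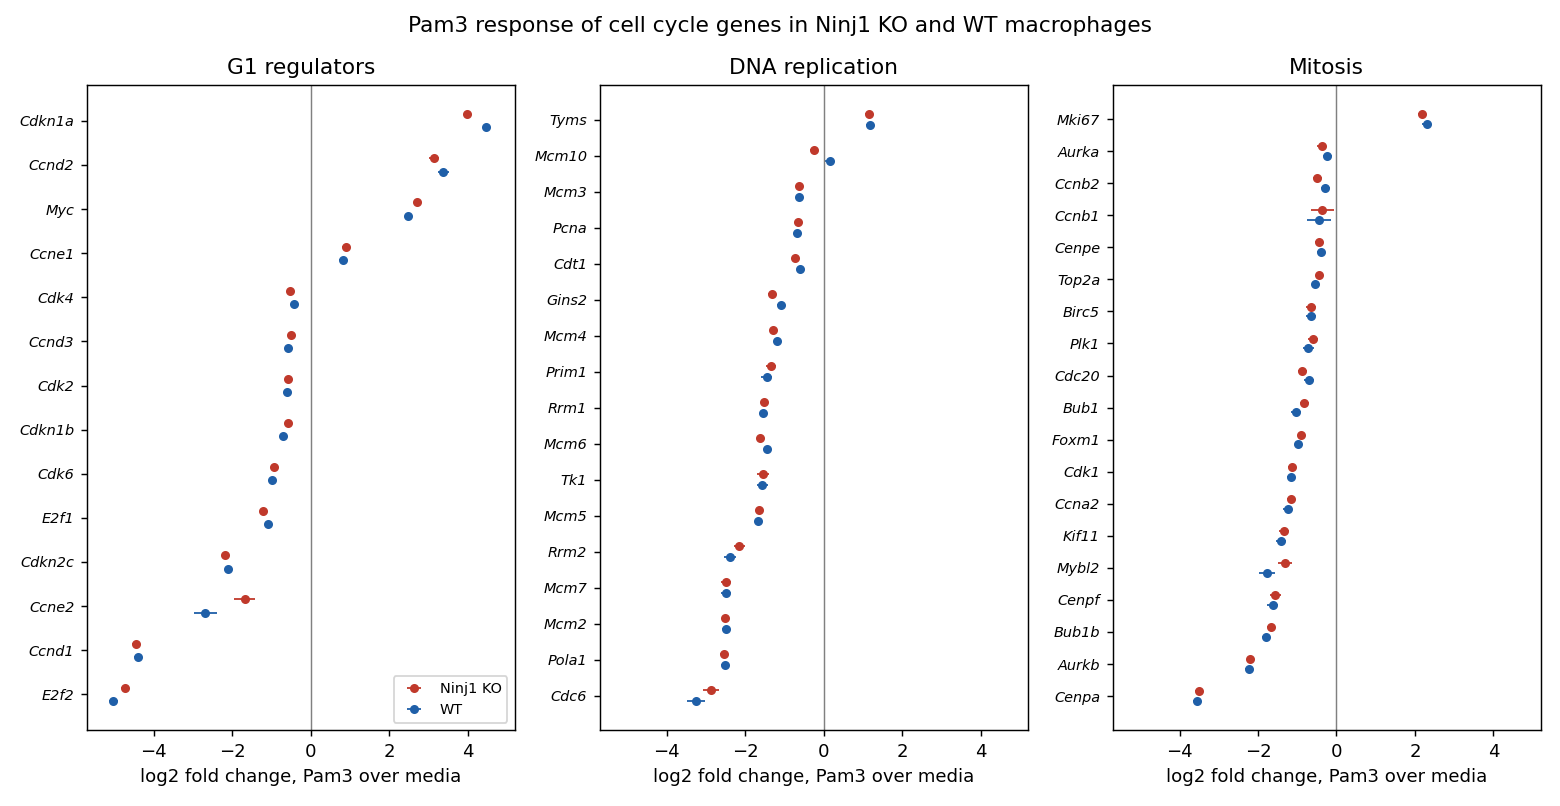
Log2 fold change of each member with Pam3 over media (horizontal axis), with bars of 1 SE, in knockout (red) and wild-type (blue) cells, in 3 panels by class. Most points lie left of 0, the farthest being E2f2 at -4.73 in knockout and -5.03 in wild-type cells, and the 6 members that rose lie right of it in both genotypes.

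The G1 regulators split more than the other classes, with 4 higher and 10 lower in both genotypes. Shares over all tested genes were 40.2% higher and 44.8% lower in knockout cells, and 40.6% and 44.2% in wild-type cells. The D-type cyclins, which bind CDK4 and CDK6 and carry growth factor signals, changed places. Ccnd1 (chr7:144929931-144939925, minus strand) stood at 2.58 to 4.02 CPM in KO_Pam3 (median 3.21), against 63.7 to 92.6 in KO_media (median 67.7), and at 2.61 to 4.17 in WT_Pam3 (median 3.08), against 63.2 to 72.8 in WT_media (median 68.5). The ranges lay far apart in both genotypes. Ccnd1 was 21.9-fold lower with Pam3 in knockout cells (log2 -4.45 ± 0.11 SE, adjusted p = 9.65e-24; -4.36 without KO_media replicate 1) and 21-fold lower in wild-type cells (-4.40 ± 0.11, adjusted p = 1.62e-23). Ccnd2 (chr6:127125162-127152193, minus strand) went the other way, at 51.9 to 68.2 CPM in KO_Pam3 (median 59.5), against 4.93 to 9.82 in KO_media (median 6.62), and at 35.7 to 59.1 in WT_Pam3 (median 52.0), against 3.99 to 5.35 in WT_media (median 4.80). No Pam3 library came near a media library. The rise of Ccnd2 was 8.81-fold in knockout cells (log2 3.14 ± 0.13, adjusted p = 1.40e-18) and 10.4-fold in wild-type cells (3.38 ± 0.13, adjusted p = 5.48e-19). Ccnd3 moved least of the D cyclins, at 9.74 to 11.4 CPM in KO_Pam3 (median 10.7), against 14.5 to 16 in KO_media (median 15.4), and at 8.06 to 12.2 in WT_Pam3 (median 8.63), against 12.8 to 14.5 in WT_media (median 13.6). It fell 1.43-fold in knockout cells (adjusted p = 1.49e-07) and 1.49-fold in wild-type cells (adjusted p = 2.79e-08), and the highest WT_Pam3 value was that of replicate 5.

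Levels of different genes can be set side by side only per transcript length, for which the RPKM values of the authors' deposited files (read counts scaled by gene length and library size, with a size factor) were used. Ccnd1 made up 4.58% to 7.35% of the summed D-type cyclin RPKM in KO_Pam3 libraries, against 70.2% to 76.2% in KO_media, and 5.36% to 9.02% in WT_Pam3, against 72.5% to 75.3% in WT_media. Ccnd2 took 60.5% to 67.6% in KO_Pam3, against 2.90% to 4.50% in KO_media, and 48.2% to 67.5% in WT_Pam3, against 2.51% to 3.19% in WT_media. Thus the D cyclin with the most RPKM was Ccnd2 in each Pam3 library and Ccnd1 in each media library. The sum of the 3 genes was 12.8 ± 0.725 RPKM in KO_Pam3 (SD, n = 6), against 23.5 ± 2.78 in KO_media, and 11.0 ± 0.714 in WT_Pam3, against 21.8 ± 1.03 in WT_media. In WT_Pam3 replicate 5 the share of Ccnd2 was the 48.2% just given and that of Ccnd3 was 45.3%, against 27.1% at the lowest in that group.

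**Figure D3:**
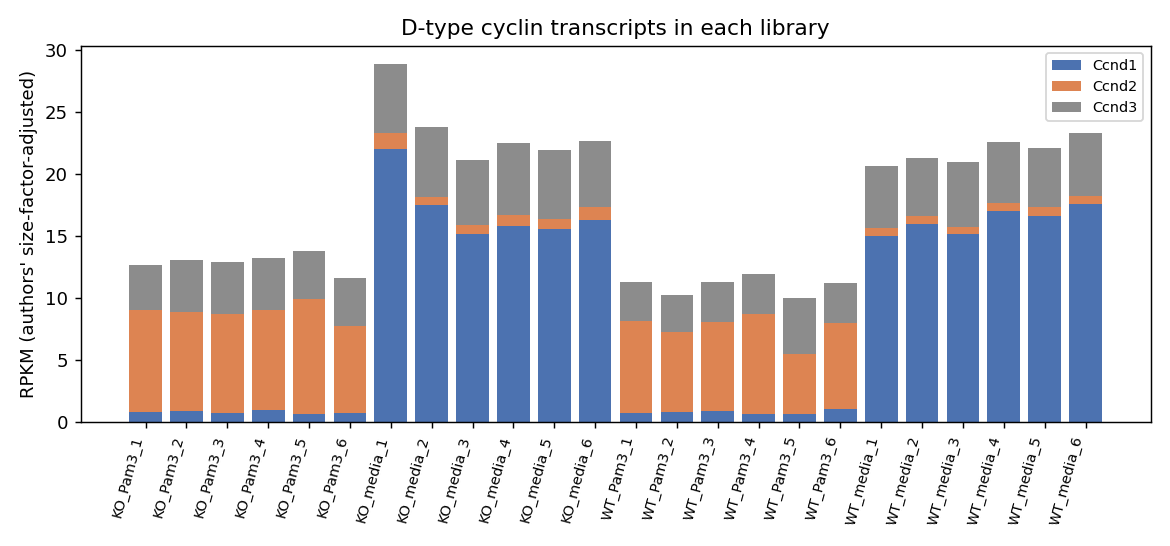
RPKM of Ccnd1, Ccnd2 and Ccnd3 stacked for each of the 24 libraries (vertical axis, the authors' size-factor-adjusted RPKM). Ccnd1 fills most of each media bar, and Ccnd2 most of each Pam3 bar except WT_Pam3 replicate 5, where Ccnd2 holds 48.2%.

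Among the E-type cyclins, which start S phase with CDK2, Ccne1 rose and Ccne2 fell. Ccne1 rose 1.86-fold in knockout cells (log2 0.90 ± 0.10, adjusted p = 1.71e-09) and 1.76-fold in wild-type cells (0.82 ± 0.09, adjusted p = 6.61e-09), with medians of 5.82 CPM in KO_Pam3, 3.08 in KO_media, 6.27 in WT_Pam3 and 3.61 in WT_media. Ccne2 rested on few reads with Pam3, 6 to 22 per KO_Pam3 library and 1 to 12 per WT_Pam3 library, against 44 to 83 in KO_media and 39 to 93 in WT_media. Its log2 change was -1.68 ± 0.26 in knockout and -2.68 ± 0.30 in wild-type cells. Ccne1 supplied 95.4% ± 2.41 of the summed RPKM of the pair in KO_Pam3, against 77.9% ± 3.87 in KO_media, and 97.7% ± 1.39 in WT_Pam3, against 79.0% ± 4.92 in WT_media (SD, n = 6 each).

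The kinases fell by less than the cyclins that moved most. Cdk4 had 70.0 to 76.2 CPM in KO_Pam3 (median 70.9), against 99.5 to 107 in KO_media (median 103), and 67.5 to 91.4 in WT_Pam3 (median 74.9), against 97.2 to 107 in WT_media (median 103). Cdk6 had 42.9 to 51.8 CPM in KO_Pam3 (median 47.2), against 85.8 to 98.2 in KO_media (median 89.0), and 33.2 to 52.9 in WT_Pam3 (median 48.7), against 87.0 to 96.8 in WT_media (median 91.9). Neither gene's ranges overlapped between treatments. Cdk4 fell 1.43-fold in knockout and 1.35-fold in wild-type cells, and Cdk6 1.92-fold and 1.99-fold, with adjusted p between 4.68e-13 and 9.03e-09. Cdk2, the partner of the E cyclins, fell 1.5-fold in knockout and 1.52-fold in wild-type cells.

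Inhibitors of these kinases did not move together. Cdkn1a (p21, chr17:29090976-29100727, plus strand), which binds cyclin-CDK complexes and is a p53 target, had 1766 to 2011 CPM in KO_Pam3 (median 1872), against 106 to 138 in KO_media (median 118), and 1866 to 2341 in WT_Pam3 (median 2288), against 90.2 to 106 in WT_media (median 101). It rose 15.9-fold in knockout cells (log2 3.99 ± 0.07, adjusted p = 7.60e-27) and 22.0-fold in wild-type cells (4.46 ± 0.07, adjusted p = 1.10e-27), the largest rise among the 50 in each. Cdkn1b (p27), of the same family, had 31.4 to 34.6 CPM in KO_Pam3 (median 32.8), against 47.4 to 52.7 in KO_media (median 48.4), and 25.5 to 33.8 in WT_Pam3 (median 31.3), against 45.8 to 55.0 in WT_media (median 49.6). Cdkn2c (p18), an INK4 inhibitor of CDK4 and CDK6, had 3.01 to 3.93 CPM in KO_Pam3 (median 3.40), against 14.4 to 16.7 in KO_media (median 15.4), and 2.51 to 4.56 in WT_Pam3 (median 3.74), against 14.7 to 16.8 in WT_media (median 16). Treatments were fully apart for each of these genes. Cdkn1b fell 1.49-fold in knockout cells (adjusted p = 1.18e-10) and 1.63-fold in wild-type cells (adjusted p = 1.91e-12), and Cdkn2c 4.56-fold (adjusted p = 2.25e-19) and 4.33-fold (adjusted p = 4.98e-19).

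Transcription factors of G1 also split. Myc, which drives cell growth and is itself an early response gene, had 37.9 to 49.1 CPM in KO_Pam3 (median 40.5), against 6.08 to 6.84 in KO_media (median 6.43), and 39.8 to 47.1 in WT_Pam3 (median 40.6), against 6.38 to 8.82 in WT_media (median 7.25). It rose 6.49-fold in knockout cells (adjusted p = 8.77e-23) and 5.62-fold in wild-type cells (adjusted p = 3.94e-22). E2f1 and E2f2 encode activator E2Fs, and both fell. E2f1 had 14.7 to 16.8 CPM in KO_Pam3 (median 15.7), against 34.4 to 38.7 in KO_media (median 37.3), and 13.7 to 21 in WT_Pam3 (median 15.7), against 34.1 to 36.1 in WT_media (median 34.3). E2f2 had 0.313 to 0.724 CPM in KO_Pam3 (median 0.403), against 11.7 to 13.3 in KO_media (median 12.3), and 0.294 to 0.460 in WT_Pam3 (median 0.354), against 11.2 to 13.6 in WT_media (median 11.9). That left 9 to 24 reads per KO_Pam3 library and 9 to 14 per WT_Pam3 library. E2f1 fell 2.34-fold in knockout and 2.14-fold in wild-type cells. E2f2 had the largest fall of all members, 26.5-fold in knockout cells (log2 -4.73 ± 0.11, adjusted p = 2.48e-24) and 32.7-fold in wild-type cells (-5.03 ± 0.11, adjusted p = 2.29e-24). With so few reads after Pam3, these SE can be too small.

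**Figure D4:**
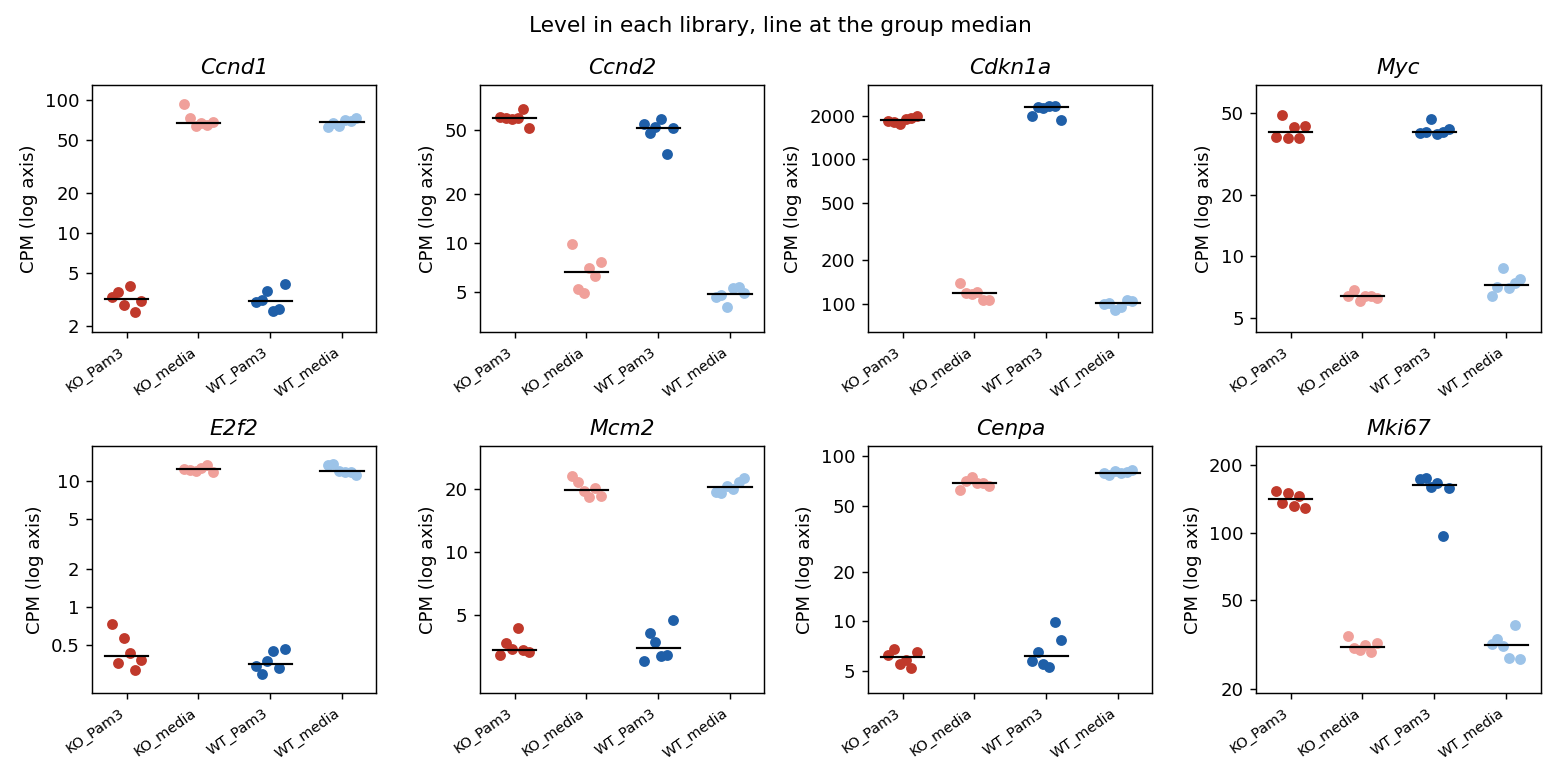
CPM in each library (points, log axis) with the group median (line) for 8 members, in KO_Pam3, KO_media, WT_Pam3 and WT_media. Ccnd2, Cdkn1a, Myc and Mki67 are higher and Ccnd1, E2f2, Mcm2 and Cenpa lower in every Pam3 library than in any media library of the same genotype, and WT_Pam3 replicate 5 lies below its group for Mki67 and Ccnd2.

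Replication genes were the most uniform class in direction. In knockout cells 16 of 17 fell and 1 rose, and in wild-type cells 15 fell, 1 rose and 1 did not pass. Beside these, 44.8% of all tested genes fell in knockout and 44.2% in wild-type cells. The class median log2 fold change was -1.51 in knockout and -1.45 in wild-type cells. Falls of at least 2-fold were seen in 12 of 17 in each, against 25.3% and 25.1% of tested genes. Together these 17 genes took 0.0104% to 0.0112% of reads in KO_Pam3, against 0.0338% to 0.0381% in KO_media, and 0.0105% to 0.0112% in WT_Pam3, against 0.0334% to 0.0362% in WT_media. Those shares are of unscaled reads, and the fall was smaller in CPM. The summed level was 121 to 131 CPM in KO_Pam3, against 281 to 325 in KO_media, and 127 to 135 in WT_Pam3, against 280 to 304 in WT_media.

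The licensing factors and the MCM helicase load before S phase. Cdc6, which loads the helicase, had 0.0980 to 0.335 CPM in KO_Pam3 (median 0.178), against 1.31 to 1.53 in KO_media (median 1.48), and 0.0371 to 0.230 in WT_Pam3 (median 0.116), against 1.04 to 1.51 in WT_media (median 1.31). With 3 to 11 reads per KO_Pam3 library and 1 to 7 per WT_Pam3 library, its fold is imprecise and its SE can be too small: log2 -2.87 ± 0.20 in knockout (adjusted p = 3.82e-13) and -3.25 ± 0.23 in wild-type cells (adjusted p = 3.68e-13). Cdt1, its partner in loading, fell only 1.66-fold and 1.52-fold. Mcm2 had 3.23 to 4.35 CPM in KO_Pam3 (median 3.43), against 18.4 to 23.1 in KO_media (median 19.9), and 3.03 to 4.76 in WT_Pam3 (median 3.48), against 19.3 to 22.7 in WT_media (median 20.5). Mcm5 had 5.71 to 7.29 CPM in KO_Pam3 (median 6.61), against 18.7 to 23.2 in KO_media (median 19.99), and 5.75 to 6.82 in WT_Pam3 (median 6.17), against 18.6 to 21.9 in WT_media (median 19.6). Treatments did not overlap for either subunit.

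Although MCM2 to MCM7 form 1 complex, their transcripts fell by different amounts. In knockout and wild-type cells the falls were 5.67-fold and 5.61-fold for Mcm2, 1.54-fold in both for Mcm3, and 2.45-fold and 2.26-fold for Mcm4. They were 3.12-fold and 3.17-fold for Mcm5, 3.05-fold and 2.73-fold for Mcm6, and 5.61-fold and 5.58-fold for Mcm7. The order by fold was the same in both genotypes, with Mcm3 least, then Mcm4, Mcm6, Mcm5, Mcm7 and Mcm2, and SE of 0.04 to 0.13 on the log2 scale. Mcm7 and Mcm2, and in knockout cells Mcm6 and Mcm5, differed by less than their SE. Mcm10, which acts at the fork, barely moved, at 3.84 to 4.57 CPM in KO_Pam3 against 3.86 to 6.52 in KO_media and 4.0 to 5.28 in WT_Pam3 against 3.81 to 4.55 in WT_media. Its ranges overlapped, and its log2 change was -0.24 ± 0.10 in knockout cells (adjusted p = 0.0327) and 0.15 ± 0.10 in wild-type cells (adjusted p = 0.172). The knockout call was lost in 9 of 29 alternatives, with the highest adjusted p, 0.156, without KO_media replicate 1 (-0.14), and the wild-type value reversed to -0.37 (adjusted p = 0.00182) with library size as the only scaling.

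At the fork, Pola1, the catalytic subunit of polymerase alpha, had 1.46 to 2.09 CPM in KO_Pam3 (median 1.62), against 8.22 to 11.4 in KO_media (median 9.75), and 1.34 to 2.09 in WT_Pam3 (median 1.60), against 8.69 to 10.3 in WT_media (median 9.40). It fell 5.77-fold in knockout cells (adjusted p = 8.13e-19) and 5.73-fold in wild-type cells (adjusted p = 1.30e-18). Its primase partner Prim1 fell 2.54-fold and 2.72-fold, and Gins2, a helicase cofactor, 2.50-fold and 2.13-fold. Pcna, the sliding clamp, had 7.58 to 9.72 CPM in KO_Pam3 (median 8.28), against 12.2 to 14.8 in KO_media (median 12.9), and 7.47 to 10.1 in WT_Pam3 (median 9.70), against 13.0 to 16.3 in WT_media (median 14.6). Its falls were 1.58-fold and 1.61-fold, and its level is uncertain because the processed pseudogene Pcna-ps2 held 3.79 to 7.54 CPM of its own.

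Of the genes that make deoxynucleotides, 3 fell and 1 rose. Rrm2, the regulated subunit of ribonucleotide reductase, had 1.07 to 1.42 CPM in KO_Pam3 (median 1.2), against 4.86 to 6.34 in KO_media (median 5.35), and 0.593 to 1.64 in WT_Pam3 (median 1.0), against 4.51 to 6.35 in WT_media (median 5.84). It fell 4.43-fold in knockout cells (adjusted p = 6.76e-14) and 5.24-fold in wild-type cells (adjusted p = 1.56e-14). Rrm1 fell 2.85-fold and 2.89-fold, and Tk1, a thymidine kinase, 2.91-fold and 2.94-fold. Tyms, thymidylate synthase, had 3.97 to 5.08 CPM in KO_Pam3 (median 4.08), against 1.68 to 2.23 in KO_media (median 1.91), and 3.71 to 5.17 in WT_Pam3 (median 4.04), against 1.46 to 2.09 in WT_media (median 1.90). All Pam3 libraries lay above all media libraries, and Tyms rose 2.24-fold in knockout cells (adjusted p = 4.05e-11) and 2.27-fold in wild-type cells (adjusted p = 4.21e-11).

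Mitotic genes fell over a wide range of sizes. In knockout cells 17 of 19 fell, 1 rose and 1 did not pass, and in wild-type cells 16 fell, 1 rose and 2 did not pass. Beside these, 44.8% of all tested genes fell in knockout and 44.2% in wild-type cells. The class median was -0.87 in knockout and -0.97 in wild-type cells. Without Mki67, the summed level of the class was 73.7 to 84.0 CPM in KO_Pam3, against 197 to 208 in KO_media, and 59.3 to 88.5 in WT_Pam3, against 190 to 220 in WT_media. With Mki67 it was 205 to 237 CPM in KO_Pam3, against 226 to 240 in KO_media, and 177 to 247 in WT_Pam3, against 217 to 258 in WT_media, so the rise of that gene offset most of the fall in the sum.

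Mki67 (chr7:135689784-135716361, minus strand) had 129 to 153 CPM in KO_Pam3 (median 141), against 29.3 to 34.6 in KO_media (median 31), and 96.7 to 175 in WT_Pam3 (median 163), against 27.4 to 38.5 in WT_media (median 31.4). It rose 4.51-fold in knockout cells (log2 2.17 ± 0.11, adjusted p = 8.66e-17) and 4.91-fold in wild-type cells (2.29 ± 0.11, adjusted p = 2.66e-17), or log2 2.40 in wild-type cells without WT_Pam3 replicate 5. Its direction was opposite to that of Top2a, also used as a marker of dividing cells. Top2a, a topoisomerase that untangles chromosomes, had 17.2 to 20.1 CPM in KO_Pam3 (median 17.9), against 22.2 to 27.2 in KO_media (median 24.8), and 13.7 to 20.8 in WT_Pam3 (median 15.4), against 20.6 to 27.1 in WT_media (median 23.3). It fell 1.36-fold in knockout cells (adjusted p = 3.38e-05) and 1.45-fold in wild-type cells (adjusted p = 2.22e-06), where single libraries of the treatments overlapped. Ccnb1, cyclin B1, was near the floor of detection, at 0.294 to 0.935 CPM in KO_Pam3 (median 0.714), against 0.622 to 1.12 in KO_media (median 0.842), and 0.0371 to 0.952 in WT_Pam3 (median 0.662), against 0.570 to 1.0 in WT_media (median 0.845). With 1 to 50 reads per library, its log2 changes of -0.36 ± 0.29 (adjusted p = 0.245) and -0.44 ± 0.30 (adjusted p = 0.175) did not pass.

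Cenpa (chr5:30666777-30674830, plus strand), the histone variant that marks centromeres, fell most in this class. It had 5.26 to 6.86 CPM in KO_Pam3 (median 6.07), against 62.2 to 74.8 in KO_media (median 69.1), and 5.33 to 9.88 in WT_Pam3 (median 6.16), against 76.9 to 82.9 in WT_media (median 79.5). The fall was 11.3-fold in knockout cells (log2 -3.50 ± 0.10, adjusted p = 2.39e-22) and 11.7-fold in wild-type cells (-3.55 ± 0.10, adjusted p = 1.61e-22). Aurkb, the kinase of the chromosomal passenger complex, had 1.92 to 2.46 CPM in KO_Pam3 (median 2.21), against 9.54 to 11.1 in KO_media (median 9.92), and 1.67 to 2.53 in WT_Pam3 (median 2.11), against 9.26 to 10.8 in WT_media (median 10.05). It fell 4.59-fold and 4.73-fold (adjusted p = 3.79e-20 and 3.73e-20). Birc5, survivin, of the same complex, fell 1.58-fold in both.

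The falls of the other mitotic members were smaller than that of Aurkb. Cdk1 fell 2.19-fold in knockout and 2.24-fold in wild-type cells, its partner Ccna2 2.23-fold and 2.36-fold, and Ccnb2 1.4-fold and 1.22-fold. The spindle checkpoint kinases Bub1 and Bub1b fell 1.77-fold and 3.21-fold in knockout cells, and 2.03-fold and 3.5-fold in wild-type cells. Cenpf fell 2.96-fold and 3.10-fold, the motor Kif11 2.54-fold and 2.67-fold, and the kinesin Cenpe 1.37-fold and 1.31-fold. Plk1 fell 1.52-fold and 1.64-fold, and Cdc20 1.82-fold and 1.62-fold. The transcription factors Foxm1 and Mybl2, which activate mitotic genes, fell 1.88-fold and 2.48-fold in knockout cells, and 1.96-fold and 3.42-fold in wild-type cells. Mybl2 had only 0.301 to 0.662 CPM in KO_Pam3 and 0.230 to 0.543 in WT_Pam3, so its folds are imprecise. Aurka fell 1.30-fold in knockout cells (adjusted p = 0.00240), while its log2 change of -0.23 ± 0.11 in wild-type cells missed the threshold (adjusted p = 0.0561) and passed in 11 of 29 alternatives, among them library size only, no low-count filter, each KO_media library left out and WT_Pam3 replicate 5 left out (-0.32, adjusted p = 0.00564). The fall of Ccnb2 in wild-type cells (adjusted p = 0.0182) was lost without WT_Pam3 replicate 3 or 4 (adjusted p = 0.0517 and 0.0691).

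The promoters printed above belong to genes with opposite responses. Cdk1, Cdc20 and Kif11 fell with Pam3, and Mki67, whose window also holds CHR and CCAAT matches, rose. Among these genes only Cdk1 has an E2F match as well. Of 38 windows of members lower in both genotypes, 8 held an E2F match, 13 a CHR match and 28 a CCAAT match (21.1%, 34.2% and 73.7%). The shares among windows of tested genes were 1.45%, 14.0% and 37.5%. Of the 41 members lower in both, 15 were replication and 16 mitotic members, so response and class cannot be told apart here. Members higher in both had 5 windows, of the 4 genes Cdkn1a, Ccne1, Tyms and Mki67, and no window was found for Myc and Ccnd2. None of the 5 held an E2F match and 1 each held CHR and CCAAT, which were those of Mki67. These are too few to compare. The E2F-bearing Mcm5 and Mcm6 both fell, but falls of replication members with such a match differed in size. Log2 fold changes were -0.63 in knockout and -0.62 in wild-type cells for Mcm3, and -2.53 and -2.52 for Pola1. Mcm2, whose window holds no E2F match, changed by -2.50 and -2.49.

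Of 122 other cell cycle genes listed by known role, 120 could be tested (Mycn and Cks2 had too few reads). Of 40 other replication genes, 26 were lower and 5 higher in both genotypes, and of 50 other mitotic genes, 37 were lower and 9 higher. Of 32 other G1 genes, 11 were lower and 15 higher. Of all tested genes, 44.8% were lower and 40.2% higher in knockout cells, and 44.2% and 40.6% in wild-type cells. The share called in both genotypes was not computed. The largest changes in G1 were those of Tfdp2, an E2F partner, with log2 fold changes of -3.73 in knockout and -3.69 in wild-type cells, Gadd45b, a stress gene (2.80 and 2.91), Cdkn2b, an INK4 inhibitor (2.68 and 2.68), and E2f7, a repressor E2F (-2.15 and -2.47). In replication they were Gmnn, geminin (-3.85 and -3.70), Clspn, a checkpoint adaptor (-3.17 and -3.06), and the polymerase epsilon subunits Pole2 (-2.59 and -2.61) and Pole (-2.02 and -2.16). In mitosis they were Cdc25b, a phosphatase that activates CDK1 (-3.45 and -3.68), the motor Kif23 (-3.01 and -3.09), the condensin subunit Ncaph (-2.49 and -2.33) and Wee1, a kinase that inhibits CDK1 (-2.28 and -2.23). Each of these passed in both genotypes, with adjusted p of at most 3.54e-10.

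Markers of other cells moved with Pam3 as well, as most tested genes did. In knockout cells 44.8% of tested genes were called lower and 40.2% higher, and in wild-type cells 44.2% and 40.6%. Of 7 markers of marrow progenitors, Kit, Mpo, Elane, Prtn3, Ctsg and Flt3 fell in both genotypes and Cd34 rose in wild-type cells, with a summed level of all 7 of 7.12 to 8.33 CPM in KO_Pam3, against 22.0 to 24.7 in KO_media, and 7.67 to 10.5 in WT_Pam3, against 21.6 to 25.8 in WT_media. Of 7 tested granulocyte markers, 5 fell and 1 rose in each, with sums of 53.0 to 61.1 CPM in KO_Pam3, against 84.9 to 97.7 in KO_media, and 43.3 to 65.1 in WT_Pam3, against 63.5 to 74.8 in WT_media. The 65.1 CPM was that of WT_Pam3 replicate 5, and the next highest of that group was 47.1. Replicate 5 also had the lowest stromal sum of WT_Pam3, 92.9 CPM. Stromal markers summed to 130 to 176 CPM in KO_Pam3, against 52.0 to 94.5 in KO_media, and to 92.9 to 132 in WT_Pam3, against 38.1 to 48.8 in WT_media. Pdgfrb made up most of that rise, with log2 fold changes of 5.37 in knockout (adjusted p = 7.68e-24) and 5.75 in wild-type cells (adjusted p = 4.80e-24). Of the 7 stromal markers, 2 rose and 3 fell in knockout cells, and 2 rose and 1 fell in wild-type cells. The part of progenitors, granulocytes or stromal cells in the changes of the cell cycle genes was not tested.

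Scaling moved the sizes of the Pam3 changes, large and small, and altered calls only among small ones. Over the 29 alternatives, the log2 change in knockout cells ran from 0.42 to 0.97 for Ccne1. For Mki67 it ran from 1.69 to 2.21, and for Top2a from -0.92 to -0.40. The folds and 2-fold counts given above hold for scaling by effective library size. With library size alone, the median of all tested genes moved by -0.48 in the knockout and by -0.52 in the wild-type comparison, and 44 members were lower and 6 higher in each. Ccnb1 then passed too, at -0.84 in knockout cells (adjusted p = 0.00925) and -0.96 in wild-type cells (adjusted p = 0.00483), and in no other alternative run. The kit did not mark strand, so reads from overlapping genes on the other strand cannot be told apart. Such a protein-coding gene shares 67.3% of the exon bases of Gins2, 23.4% of Ccnd1, 19.7% of Cdk4, 17.4% of Ccne2, 12.5% of Ccna2 and 7.25% of Mcm7.

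Between knockout and wild-type cells, 1 of the 50 members passed the test. In media, 1 member was higher and none lower in knockout than in wild-type cells, where 1.92% of tested genes were higher and 1.12% lower. With Pam3, none was higher and 1 lower, where 1.31% were higher and 2.75% lower. At an unadjusted p of 0.05, 11 members passed in media, where 13.0% of tested genes did, and 8 with Pam3, where 16.3% did. DESeq2 called 2 higher and 0 lower in media (2.48% and 1.77% of the genes it tested), and 1 higher and 1 lower with Pam3 (2.07% and 4.7%). The differences were small: in media 49 of 50 lay within 0.25 of 0 on the log2 scale, with a median SE of 0.09, and with Pam3 44 of 50, with a median SE of 0.11. All 6 knockout libraries lay above all 6 wild-type libraries in media for Ccnd3 alone (2.16% of tested genes did so) and below them for Cenpa alone (2.11%). With Pam3 every member overlapped, where 0.894% of tested genes lay above and 1.63% below.

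The gene that passed was Cdkn1a in each case. In media its level was 106 to 138 CPM in KO_media, against 90.2 to 106 in WT_media, a log2 fold change of 0.24 ± 0.06 (adjusted p = 0.0299). With Pam3 it was 1766 to 2011 CPM in KO_Pam3, against 1866 to 2341 in WT_Pam3, a change of -0.22 ± 0.06 (adjusted p = 0.0433). The groups overlapped in both. Its response to Pam3 was smaller in knockout than in wild-type cells, by -0.46 ± 0.09 on the log2 scale (interaction, adjusted p = 0.0115), where 0.589% of tested genes had a lower and 0.173% a higher response. That difference passed in all 28 alternatives, with adjusted p up to 0.0433. The interaction uses all 24 libraries, shared with the other comparisons. The difference in media lost its call without KO_media replicate 1 or 4 or WT_media replicate 1, 3 or 4 (0.19 to 0.24, adjusted p = 0.0530 to 0.0895), and that with Pam3 in 22 of 29 alternatives (-0.22 to -0.17, adjusted p = 0.0608 to 0.163).

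Ccnd2 in media came close, at 4.93 to 9.82 CPM in KO_media, against 3.99 to 5.35 in WT_media, a log2 fold change of 0.49 ± 0.14 (adjusted p = 0.0501). Its highest value was that of KO_media replicate 1, without which the change was 0.36 (adjusted p = 0.168). It passed in 8 of 29 alternatives, with the lowest adjusted p, 0.00837, without WT_Pam3 replicate 5. Of the 19 mitotic members, 17 had a log2 fold change above 0 in media (median 0.11) and 17 with Pam3 (median 0.16). None passed. Of all tested genes, 49.0% lay above 0 in media (median -0.002) and 45.3% with Pam3 (median -0.014). In media stromal markers also differed, with 6 of 7 called higher and a summed level of 52.0 to 94.5 CPM in KO_media, against 38.1 to 48.8 in WT_media. Of 7 tested granulocyte markers, 4 were higher in KO_media than in WT_media, and of 6 macrophage markers 1. With Pam3, 3 of 7 stromal, 2 of 7 granulocyte and 1 of 6 macrophage markers were higher and 2 of 6 macrophage markers lower in knockout cells. Without KO_media replicate 1 the media counts were 6 stromal, 4 granulocyte and 0 macrophage markers higher. The part of such cells in these differences was not tested.

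**Figure D5:**
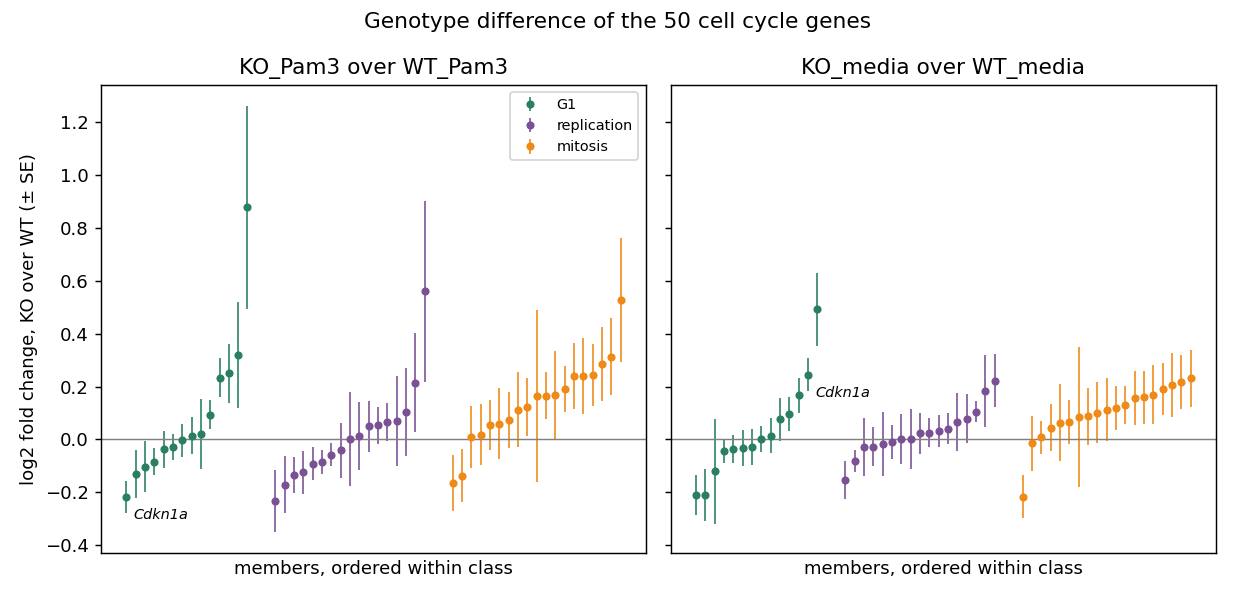
Log2 fold change of knockout over wild-type cells (vertical axis, bars 1 SE) for the 50 members, ordered within class, with Pam3 (left) and in media (right). Most points lie within 0.25 of 0, Cdkn1a is marked, and most mitotic points (orange) lie above 0.

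Variation within groups was largest in WT_Pam3. The median coefficient of variation of G1, replication and mitotic members was 15.4%, 12.6% and 24.3% there, against 7.57%, 10.1% and 10.4% in KO_Pam3, 5.05%, 7.98% and 8.88% in KO_media, and 5.74%, 7.37% and 12.2% in WT_media. Within WT_Pam3, replicate 5 was the highest of the 6 libraries in 17 members and the lowest in 8, and replicate 6 the highest in 18 and the lowest in 8. In replicate 5 Mki67 was 96.7 CPM, against 159 to 175 in the other 5 libraries, Cdk6 33.2 against 46.6 to 52.9, Ccnd3 12.2 against 8.06 to 8.80, and Tyms 5.17 against 3.71 to 4.15. Without replicate 5, Ccnd3 was higher (log2 0.33, adjusted p = 4.54e-05) and Mki67 lower (-0.24, adjusted p = 0.00745) in KO_Pam3 than in WT_Pam3, where with it they were 0.23 (adjusted p = 0.0759) and -0.14 (adjusted p = 0.526). In media, Ccnd3 (0.17, adjusted p = 0.00799) and Cenpa (-0.22, adjusted p = 0.00179) then passed too, in the same fit of the 4 groups. Over all 29 alternatives adjusted p ran from 4.54e-05 to 0.281 for Ccnd3 and from 0.00745 to 0.738 for Mki67 with Pam3, and from 0.00799 to 0.391 for Ccnd3 and from 0.00175 to 0.369 for Cenpa in media. Without WT_Pam3 replicate 6, Cdt1 was lower in KO_Pam3 (-0.20, adjusted p = 0.0359), with a range of 0.0359 to 0.637.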

How the data were processed

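Polyadenylated RNA of 24 macrophage samples was sequenced as single-end 50 bp reads on a HiSeq4000 after TruSeq v2 preparation, per the labels' protocols. This kit does not mark strand. The submitters' processing notes name GSNAP and GRCm38, with no version, counting tool or annotation given in the sources used here. The deposited count column holds uniquely aligned reads per gene model, per the file headers, without normalization, and the deposited RPKM column is adjusted by a size factor. Reads aligning to several places are absent from these counts, which can lower genes with close copies. GENCODE M21 gave symbols to 52489 of 52636 models, and the others held 0.00387% of reads.

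Counts were tested in R 4.3.3 with edgeR 4.0.16 (TMM, filterByExpr, glmQLFit and glmQLFTest), 1 mean per group over 24 libraries, with Benjamini-Hochberg adjustment over 14435 genes and a threshold of 0.05. The biological coefficient of variation was 8.21%. Each SE of a log2 fold change was derived from the test, as the absolute change divided by the square root of its F statistic. Such an SE is not a separate estimate and can be too small for large changes on few reads. CPM values are TMM-scaled. The interaction is the Pam3 response in knockout minus that in wild-type cells. The scripts were tested on simulated data. RPKM values served for levels between genes only. Alternatives were RLE factors, library size only, no low-count filter, DESeq2 1.42.0, a fit of the 2 groups alone (not for the interaction), and each of 24 libraries left out in turn.

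The members and gene lists were chosen with earlier results of these data known. Values by library are given for 17 members picked by role, for the 3 of each class with the largest mean absolute Pam3 change that passed in both genotypes, and for members passing a genotype test. Of the other genes, the 4 per class with the largest change are named. Promoter sequences are from RefSeq (GRCm38.p6), and gene coordinates from GENCODE on GRCm38. Python 3.11.15 was used for summaries and figures.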

Additional observations from a re-analysis of the deposited data

Results flagged for a closer look

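Within groups, 9 values lay far from the other 5 libraries of their group, of 200 member and group pairs examined, where about 1 in 20, or 10, would do so by chance. In WT_Pam3 replicate 5 these were Ccnd3 (12.2 CPM, others 8.06 to 8.80), Cdk6 (33.2, others 46.6 to 52.9), Tyms (5.17, others 3.71 to 4.15) and Mki67 (96.7, others 159 to 175). In WT_Pam3 replicate 4 they were Mcm7 (1.09 CPM, others 0.760 to 0.882) and Mybl2 (0.543, others 0.230 to 0.336), and in WT_Pam3 replicate 3 Myc (47.1, others 39.8 to 42.1). In KO_media they were Ccnd1 in replicate 1 (92.6 CPM, others 63.7 to 73.4) and Cdkn1b in replicate 4 (52.7, others 47.4 to 48.5). WT_Pam3 replicate 5 holds 4 of the 9, and also has the lowest share of reads in mitotic members (0.0147%) and in mitochondrial genes (0.336%). The low mitotic share goes with its low Mki67 and does not describe the class. Of 19 mitotic members, replicate 5 was the highest of its group in 6 and the lowest in 2.

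The Pam3 response of Cdkn1a differed between genotypes, by -0.46 on the log2 scale in knockout minus wild-type cells (interaction term, edgeR, adjusted p = 0.0115).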

How the results depend on the processing

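The counts of members changed by Pam3 kept within 1.5 times under each alternative. Leaving out 1 library at a time gave 6 higher and 42 to 43 lower in knockout cells, and 6 higher and 40 to 42 lower in wild-type cells. The genotype counts are small and moved: leaving out 1 library gave 0 to 3 members higher and 0 to 1 lower in media, and 0 to 1 higher and 0 to 2 lower with Pam3. In media, 2 were higher with library size only, with no low-count filter and with DESeq2, and 3 higher and 1 lower in the fit of the 2 groups alone. With Pam3, 1 was higher with library size only and with DESeq2, and 0 were lower with library size only, with no low-count filter and in the fit of the 2 groups alone. The interaction kept 0 higher and 1 lower. Among single genes, 1 value reversed: Mcm10 in wild-type cells, -0.37 with library size only, a scaling that moved the median of all genes by -0.52. Other causes were not tested. No paired analysis was possible because replicate numbers were assigned in deposition order and no label links libraries across groups. Members with few reads (Ccne2, Cdc6, Ccnb1, E2f2 and Mybl2 with Pam3) limit the precision of their folds.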

Other observations

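Among the 122 other cell cycle genes, 3 outside the naming rule passed a genotype test and are named here after their values were seen. Of 120 tested, 1 was higher in media, where 1.92% of all tested genes were, and 2 were lower with Pam3, where 2.75% were. Samhd1, an enzyme that breaks down deoxynucleotides and limits their pool, was higher in knockout cells in media (504 to 693 CPM in KO_media, against 445 to 495 in WT_media, log2 0.25 ± 0.06, edgeR adjusted p = 0.0102). Without KO_media replicate 1 the change was 0.18 (adjusted p = 0.00659), and it passed in 29 of 29 alternatives. Its response to Pam3 was smaller in knockout cells (interaction -0.33 ± 0.08, adjusted p = 0.0401), a call that held in 8 of 28 alternatives, with adjusted p up to 0.106. Max, the partner of MYC, was lower in KO_Pam3 (153 to 169 CPM) than in WT_Pam3 (170 to 186 CPM), with a log2 fold change of -0.15 ± 0.04 (adjusted p = 0.0262), and passed in 11 of 29 alternatives, with adjusted p up to 0.287. Mxd1, which competes with MYC for MAX, was also lower in KO_Pam3 (41.2 to 47.4 CPM) than in WT_Pam3 (43.5 to 58.2 CPM), at -0.22 ± 0.05 (adjusted p = 0.0135). It passed in 27 of 29 alternatives, and was -0.26 (adjusted p = 3.56e-05) without WT_Pam3 replicate 5.

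Mitotic genes that rose with Pam3 in both genotypes, as Mki67 did, were few. Of the 9 other mitotic genes higher in both, the largest log2 fold changes were those of Mad2l1, a spindle checkpoint protein (1.62 in knockout and 1.71 in wild-type cells), Pkmyt1, an inhibitory kinase of CDK1 (1.54 and 1.42), and Pttg1, securin (1.24 and 1.51), named after their values were seen.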
